A study of Mus musculus with 250 samples.

Results

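The cells described here are 166 of the 250 single epidermal cells of the study: 81 cells from the memory region at a distance from a wound (distal cells) and 85 cells from the wound bed. They were chosen by the region given in the labels and by plate, with no measured value, and region and batch were never mixed within a plate. Distal cells filled 1 plate of 32 cells in batch 1 and 1 of 49 in batch 2, and wound bed cells 1 of 30 and 1 of 55. All came from tail epidermis of Lrig1CreER/Rosa-TdTomato mice, in which a Cre recombinase expressed from Lrig1 switches on a red fluorescent reporter, and all were sorted as cells of the Lrig1 lineage with Sca1 on their surface, a gate meant to enrich for the upper hair follicle. Every cell has the time label 8w_pw1, of which only the 8 weeks can be read without a guess. The other 84 cells, 28 and 56 per batch, share genotype, sort and time but came from a control region without memory, and their values stand below as background. The labels do not tell animals apart, so each region counts as 1 sample, no test between regions was run, and no value has an error between animals.

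Lrig1 is a marker of stem cells in the upper hair follicle, the part of the follicle that opens into the skin surface and holds the sebaceous gland. After injury, progeny of these cells move into the epidermis between follicles and contribute to the new surface. Basal keratinocytes carry keratins 5 and 14, and on leaving the basal layer they switch to keratins 1 and 10. Sca1, the product of Ly6a, is found on basal cells of the epidermis and of the follicle opening. The comparison asks how cells of this lineage that stayed at a distance from a wound differed from those in its bed.

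Summed reads were 10671470 and 2888806 in the distal plates of batches 1 and 2 and 1751116 and 2898446 in the wound bed plates. In distal batch 1, 4 cells with over 500000 reads each held 72.8% of the reads of the plate. The values below therefore come in 2 weightings, the sum over a plate and the mean with every cell weighted equally. Median reads per cell were 93690.5 in distal and 40809.5 in wound bed cells in batch 1, and 31686 and 41206 in batch 2, so that distal cells were deeper in batch 1 and shallower in batch 2. Median detected genes were higher in distal cells in each batch, at 2093.5 and 1777 in batch 1 and 2055 and 1493 in batch 2. Mitochondrial transcripts took 41.8% of distal and 31.2% of wound bed reads in batch 1 and 25.9% and 25.5% in batch 2. Symbols of repeat-like sequence took 15.4% of the non-mitochondrial reads in distal batch 2, with 1 cell above 5% there, against 0.23% in wound bed batch 2. No pair of cells had identical counts.

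Each gene was described by a log2 ratio of distal over wound bed within each batch, from plate sums as CPM (read counts scaled to library size) with 1 CPM added, which understates the ratio of low genes. Pairs of values are given for batch 1 and then batch 2. Genes entered when, in each batch, 10% or more of distal or of wound bed cells had a read. The size rule asked for ratios of at least 1 in size and of the same sign in both batches. Of 6285 genes considered, 603 (9.59%) met the rule as higher and 332 (5.28%) as lower in distal cells, and such genes are said to be called. The gene lists below were chosen with earlier results of these data known. Their counts beside these shares are therefore a description and not independent support. Another 896 genes reached the same size in opposite directions, nearly as many as the 935 that reached it in the same direction. The ratios of batch 1 and batch 2 were hardly related over the genes (Pearson r = 0.05, Spearman rho = 0.02, a description, since genes do not vary independently). The split between higher and lower also moved with the scaling: with total counts in place of the scaling by trimmed means, 479 genes met the rule as higher and 484 as lower, and the medians of all genes were -0.25 and 0.08 in place of 0.25 and -0.02. Of the 30 genes named by rank and the further list members called, 1 ranked gene (Fcgbp) and 15 list members no longer met the rule under that scaling. None changed direction, but none could have. The scaling moved the ratios of a batch by similar amounts below 1, and these genes were chosen for ratios of at least 1 in size. Requiring the size rule by plate sums and by equal weight left 312 higher and 143 lower.

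**Figure D1:**
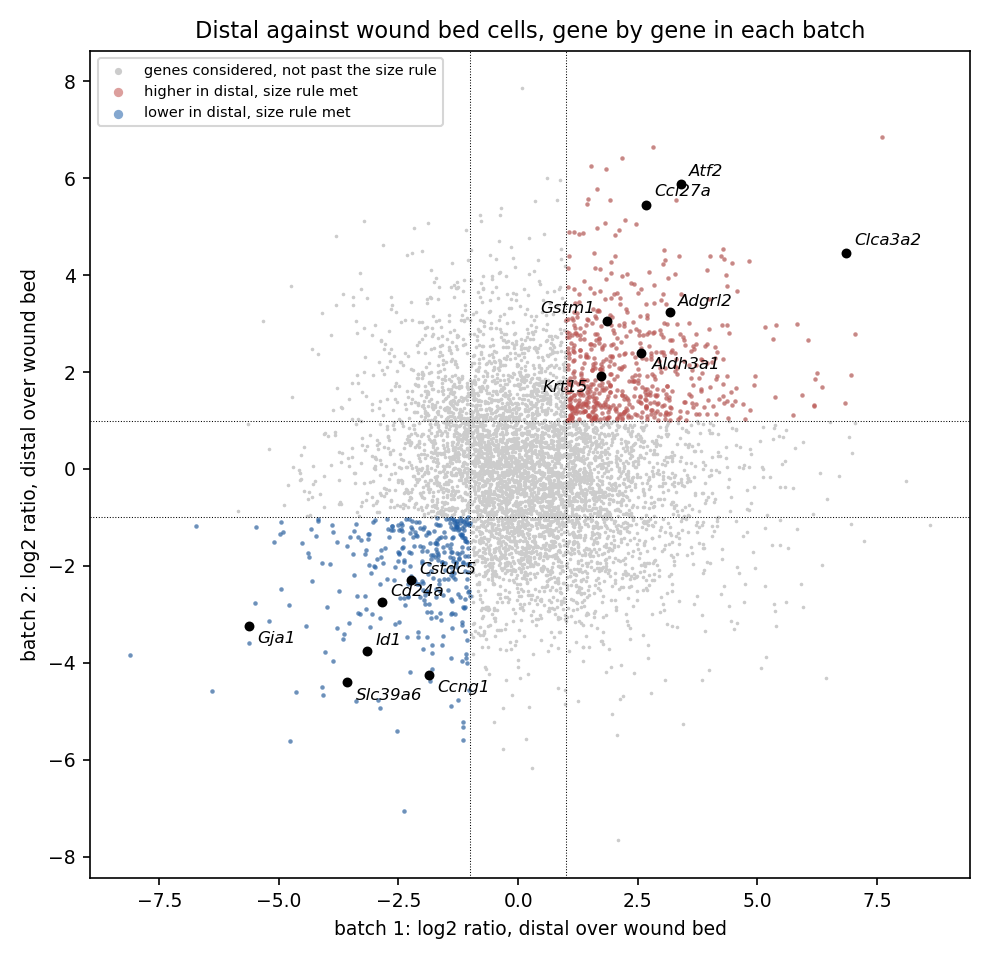
Log2 ratio of distal over wound bed cells in batch 1 (horizontal) and batch 2 (vertical) for the 6285 genes considered, 1 point a gene. Coloured points are the 603 higher and 332 lower genes that met the size rule, dotted lines mark ratios of 1 and -1, and the cloud shows no slope (r = 0.05).

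From the genes that met the size rule in both weightings, 15 in each direction were named by rank. Each was also detected in 25% or more of the cells of its higher region, batch by batch. Their ratios are what ranked them and are given as a description. Of the 15 ranked as higher in distal cells, 11 met the rule in all 9 settings in which ratios were computed anew, and of the 15 ranked as lower, 10 did. The ranked genes differed by 3.23-fold to 50.5-fold and by 3.0-fold to 21.7-fold, as means over batches. For at least 6 of the 15 ranked as higher, 1 cell gave most of the reads of a plate in both batches. The same held for at least 3 of the 15 ranked as lower.

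The gene ranked first on the distal side was Clca3a2. Clca3a2 (chromosome 3, 144796559 to 144819494, minus strand, GRCm38), of the family of calcium-activated chloride channel regulators, stood at 1207 and 160 CPM in distal plates, 9.40 and 6.34 in wound bed plates and 344 and 85.4 in control plates. The distal plates were above the wound bed plates in each batch, and the control plates lay between them. Reads of it were found in 19 of 32 and 18 of 49 distal cells and in 4 of 30 and 3 of 55 wound bed cells. Over both batches the distal share was 45.7% (95% interval 34.6 to 57.1%) and the wound bed share 8.24% (3.38 to 16.2%), or 39% and 2.56% with each cell thinned to 10000 reads. Intervals of shares are exact Clopper-Pearson intervals and cover counting error only. Clca3a2 has close relatives beside it, between which reads could have been split. Fcgbp, which encodes a mucus-type protein that binds the Fc part of antibodies, was at 47.2 and 96.4 CPM in distal, 16 and 6.34 in wound bed and 0.85 and 8.60 in control cells. It was seen in 25 distal and 4 wound bed cells, and all its reads in wound bed batch 1 came from 1 cell. Alox12e, an epidermal lipoxygenase, met the size rule by sums (2.85 and 3.42) but not by equal weight (0.15 and 3.92). These 3 were the members called higher among 5 considered of a list of antimicrobial and barrier genes, against 9.59% of all genes, and Clca3a2 and Fcgbp were called in both weightings. The other members considered, the defensins Defb1 (4.94 and -2.05) and Defb6 (1.42 and -1.94), antimicrobial peptides, went in opposite directions. The summed level of the list was 3668 and 1606 CPM in distal and 805 and 4759 CPM in wound bed plates, so that it was lower in distal cells in batch 2.

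Ccl27a, a chemokine made by keratinocytes that attracts skin-homing T cells, lies on chromosome 4 at 41769467 to 41774247. It had 447 and 255 CPM in distal plates against 69.7 and 4.83 in wound bed plates, with 26.7 and 125 in control plates. In wound bed batch 1, 88.9% of its reads came from 1 cell. Only 6 of 85 wound bed cells had a read (7.06%, 2.63 to 14.7%), against 42 of 81 distal cells (51.9%, 40.5 to 63.1%). The T cell markers Cd3e, Cd3d, Trdc and Lck had no read in these plates, but other members of the T cell list had. Trbc2 had 192 and 82 reads in distal and 61 and 74 in wound bed plates. Thy1 had 7 and 4 reads in distal and 2 and 16 in wound bed plates. Ptprc had 57 and Cd3g 3 reads in distal batch 2. The whole list summed to 26.3 and 41.3 CPM in distal and 34.8 and 27.2 CPM in wound bed cells.

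Aldh3a1, Gstm1 and Gstm5, ranked on the distal side, encode detoxifying enzymes. Aldh3a1, an aldehyde dehydrogenase, was at 249 and 423 CPM in distal, 40.9 and 79.4 in wound bed and 217 and 570 in control plates. Gstm1 (chromosome 3, 108012255 to 108017973), a glutathione transferase of the mu class, was at 125 and 439 CPM in distal, 33.7 and 52.2 in wound bed and 417 and 797 in control plates. Its neighbour Gstm5 was at 278 and 771 CPM, 45.3 and 158 CPM, and 904 and 1321 CPM in the same order. For all 3 enzymes the wound bed plates were the lowest of their batch, and for both transferases the control plates were the highest. Gstm5 had reads in 48 of 81 distal (59.3%) and 27 of 85 wound bed cells (31.8%), and in 84.5% of control cells. Thinned to equal depth, the shares were 48.1%, 24.4% and 81.9%. Members of the mu class are similar in sequence, and how reads matching several of them were divided is not given in the sources used here. Of 17 members considered of a glutathione and antioxidant list, 3 were higher (Gstm1, Gstm5 and Gclc, the catalytic subunit of the first enzyme of glutathione synthesis), against 9.59% of all genes, and none lower, while 10 went in opposite directions. The list medians, 0.03 and 0.64, were close to those of all genes in batch 1. Gclc rested on 2 reads in wound bed batch 1 and was not called by equal weight (4.15 and 0.18), and the abundant peroxidase Prdx1 (0.01 and -1.08) was not higher.

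The remaining ranked genes on the distal side had varied roles. Krt15, a keratin of basal and follicle stem cells, was at 476 and 1090 CPM in distal, 142 and 286 in wound bed and 862 and 1679 in control plates. Adgrl2, an adhesion G protein-coupled receptor, was at 102 and 87.6 CPM, 10.5 and 8.45 CPM, and 66.9 and 134 CPM, with 41 distal and 11 wound bed cells carrying reads. Hpgd, the enzyme that inactivates prostaglandins, was at 262 and 66.4 CPM in distal, 26 and 15.7 in wound bed and 12.2 and 13 in control plates. Here the control plates were the lowest, unlike for Krt15 and Adgrl2. Smg1 (2.96 and 2.08), a kinase of nonsense-mediated mRNA decay, Nagk (2.37 and 2.39), which phosphorylates N-acetylglucosamine, Ostf1 (1.69 and 1.73), an adaptor protein, Nfe2l1 (2.91 and 1.65), a transcription factor that raises proteasome genes, and Ubr4 (1.87 and 1.51), a ubiquitin ligase, completed the list with Atf2. Atf2, a transcription factor of the CREB family, was at 126 and 623 CPM in distal and 11.1 and 9.66 CPM in wound bed plates, but 98.7% of its distal batch 2 reads came from 1 cell. The shares of cells with an Atf2 read, 25.9% and 10.6%, overlapped in their intervals (16.8 to 36.9% and 4.96 to 19.2%). Nfe2l1 had 112 distal reads and 2 wound bed reads in batch 1, a ratio of 13.4 (3.62 to 112, counting error only).

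On the wound bed side the ranked genes included a gap junction protein, a zinc transporter and surface proteins. Gja1 (chromosome 10, 56377330 to 56402513, plus strand), which encodes connexin 43, stood at 15.3 and 68.4 CPM in distal, 807 and 658 in wound bed and 470 and 187 in control plates. Wound bed plates were the highest of each batch. Reads were found in 52 of 85 wound bed cells (61.2%, 50 to 71.6%), in 28 of 81 distal cells (34.6%, 24.3 to 46%), and in 25% of those from the control region. Thinned, the shares were 57.7%, 20.8% and 18.1%. Slc39a6, a zinc importer of the ZIP family, was at 62.8 and 34.5 CPM in distal and 758 and 741 CPM in wound bed plates. Its control plates differed widely, at 1217 and 85.4 CPM, with 99.9% of the former from 1 cell, and only 10.7% of control cells had a read, against 50.6% of wound bed and 17.3% of distal cells. Cd24a, a surface glycoprotein, was at 86.5 and 59.9 CPM in distal, 629 and 409 in wound bed and 4.25 and 72.6 in control plates, and in 25.9%, 55.3% and 15.5% of cells. A higher share of cells in each batch was part of the ranking rule, so the shares of ranked genes are a description.

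Cstdc5, a cystatin A-like gene of the stefin A cluster that inhibits cysteine proteases, had reads in 73 of 85 wound bed cells (85.9%, 76.6 to 92.5%) and 32 of 81 distal cells (39.5%, 28.8 to 51%), and in 19% of control cells. Its levels were 1387 and 762 CPM in distal, 6533 and 3731 in wound bed and 68.9 and 141 in control plates. Distal plates thus lay between control and wound bed plates in each batch. In each distal plate 1 cell gave much of this, 69.6% and 55.4% of the reads. Stefin A genes are near-identical copies, so the division of reads between them is uncertain. Id1, an inhibitor of transcription factors that BMP signals raise, had 5.55 and 1.98 CPM in distal, 57.5 and 39.2 in wound bed and 46.5 and 34.4 in control plates. Only 5 of 81 distal cells had an Id1 read, against 29 of 85 wound bed cells, and the control plates stood near the wound bed plates.

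The other genes ranked as lower in distal cells had varied roles. Ccng1, a cyclin induced by p53, was at 43 and 9.61 CPM in distal and 158 and 201 CPM in wound bed plates. Skp1a, a core subunit of SCF ubiquitin ligases, was at 291 and 181 CPM in distal and 1124 and 1111 CPM in wound bed plates, and was found in 86.4% and 92.9% of cells, so that its difference lay in the reads per cell. Egln3 (-1.70 and -1.47), a prolyl hydroxylase that hypoxia induces, Trim2 (-3.63 and -3.40), a ubiquitin ligase, Epha4 (-2.88 and -2.37), an ephrin receptor, and Myo5a (-1.40 and -3.00), an unconventional myosin, were also lower in distal cells. So were Ppp2r5a (-3.12 and -1.99) and Ppp4r3b (-1.91 and -3.47), subunits of protein phosphatases, Ndufaf4 (-2.29 and -2.64), an assembly factor of respiratory complex I, and Zfand6 (-1.90 and -1.69), a zinc finger protein. Trim2 did not keep its direction in batch 1 among cells with more basal than suprabasal keratin reads (1.76 and -4.33), and Epha4 was at -6.02 and -0.01 in cells with at least 2000 genes.

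**Figure D2:**
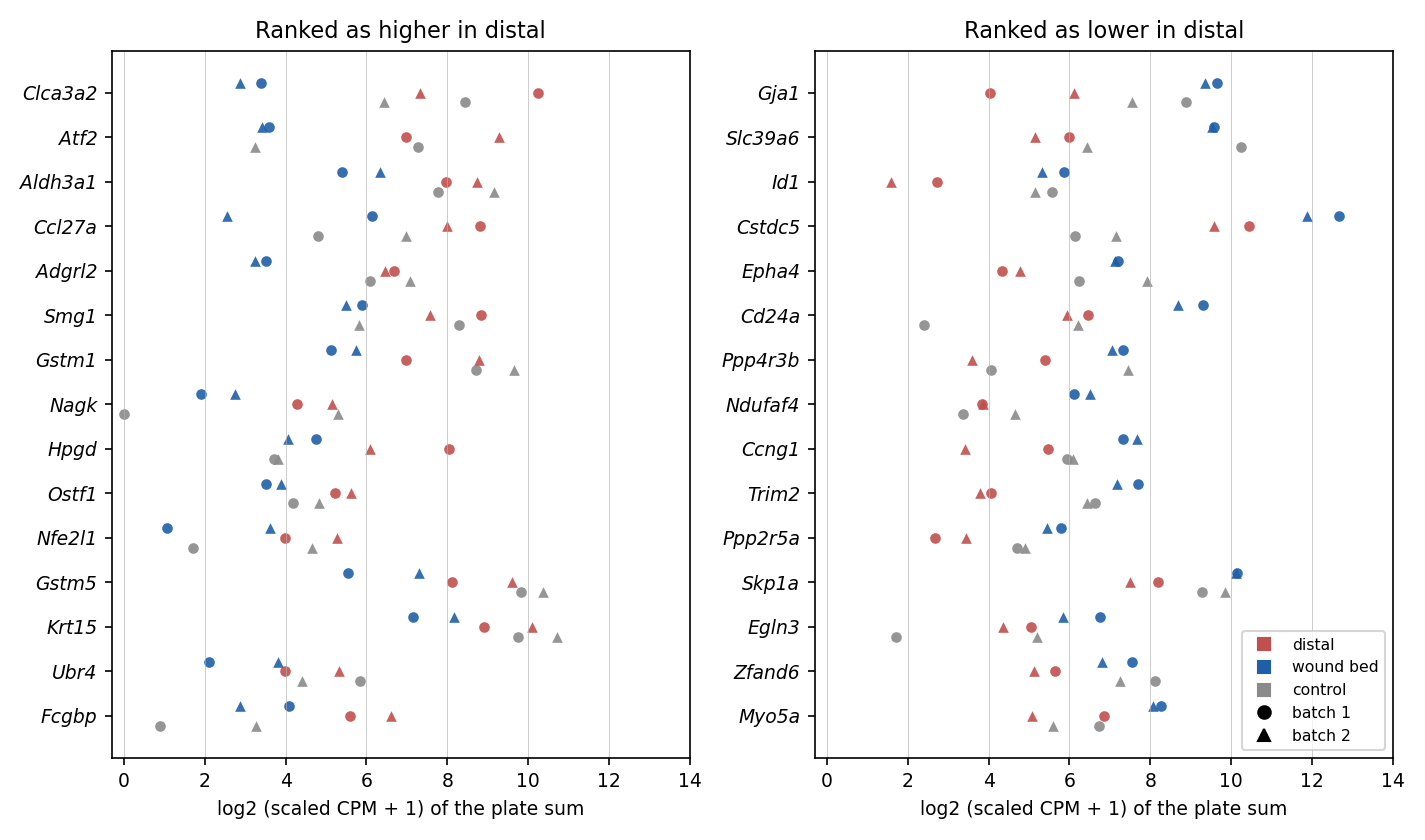
Levels of the 15 genes ranked as higher and the 15 ranked as lower in distal cells, as log2 of scaled CPM plus 1 of each plate sum. Colours are regions and shapes are batches, and each gene's distal and wound bed points of a batch lie at least 1 unit apart because the genes were chosen so. The grey control points lie nearer the distal than the wound bed points for Gstm5 and Krt15, and nearer the wound bed points for Id1.

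**Figure D3:**
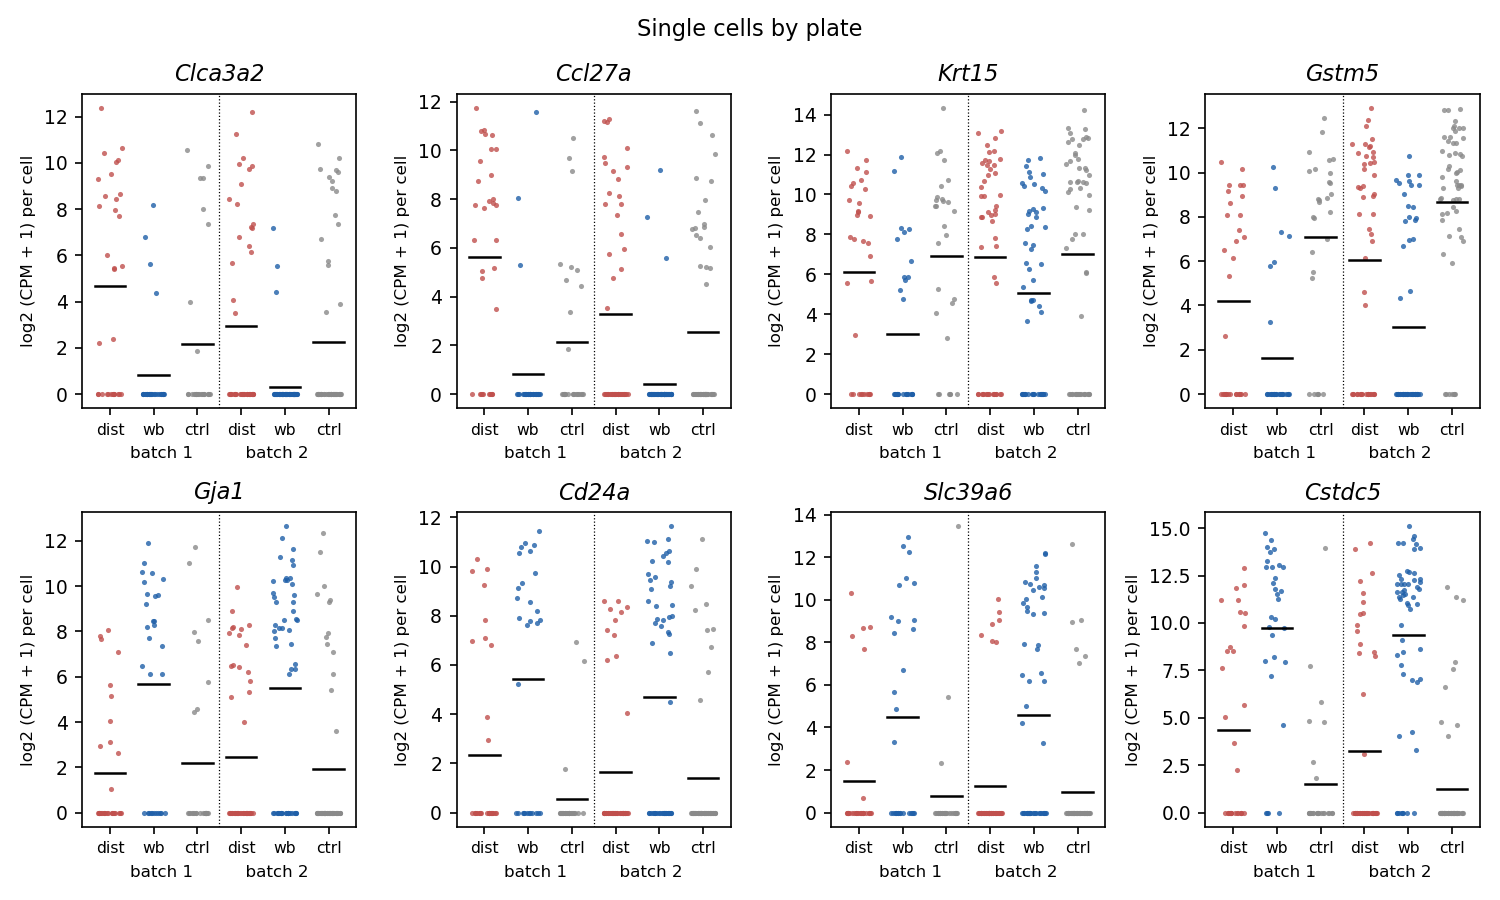
Log2 of CPM plus 1 in each cell for 8 ranked genes, by plate (dist, distal; wb, wound bed; ctrl, control), with the plate mean of these log values as a bar. Cells at 0 had no read. For Ccl27a, 22 of 32 and 20 of 49 distal cells lie above 0, against 3 of 30 and 3 of 55 wound bed cells.

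The control plates, which the ranking did not use, did not side with 1 region throughout. Of the 15 genes ranked as higher in distal cells, the control plates were nearer the distal plates in both batches for 6 (Clca3a2, Aldh3a1, Adgrl2, Gstm1, Gstm5 and Krt15), nearer the wound bed plates for 2 (Hpgd and Fcgbp) and divided for 7. Of the 15 ranked as lower, the control plates were nearer the distal plates for 4 (Cstdc5, Cd24a, Ndufaf4 and Myo5a), nearer the wound bed plates for 6 (among them Id1, Epha4 and Skp1a) and divided for 5. For the first 15 genes, distal plates were above the control plates in both batches for 7 and wound bed plates below them for 10. For the second 15, distal plates were below the control plates in both batches for 9 and wound bed plates above them for 11. The distal and wound bed values in these counts are those that ranked the genes.

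The lineage gene and the sorting marker were checked in every plate. Lrig1 had 2.51 and 28.6 CPM in distal, 0.55 and 0 in wound bed and 6.80 and 20.6 in control plates. In wound bed batch 2 no cell had a read, and with a floor of 3 counts for the plate Lrig1 was at least 31.5-fold higher in distal cells there. In batch 1, 19 distal reads stood against 1 wound bed read, a ratio of 4.54 with a counting interval of 0.72 to 189. Such intervals of read ratios treat reads as independent molecules, which they are not without molecular identifiers, and leave out the spread between cells, so they and the floors cover counting error only. Lrig1 reads were seen in 14 of 81 distal cells (17.3%, 9.78 to 27.3%), 1 of 85 from the wound bed (1.18%, 0.03 to 6.38%) and 21.4% from the control region. Lrig1 was not called by equal weight (0.33 and 4.74). Ly6a, which encodes Sca1, was lower in distal cells, at 97.8 and 195 CPM against 521 and 600 in wound bed and 147 and 155 in control plates. Since every cell was gated on Sca1, this is a difference among gated cells. Reads were seen in 51.9% of distal, 75.3% of wound bed and 32.1% of control cells, and Ly6a was not called by equal weight (-2.06 and -0.50).

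Of 11 members considered of an upper follicle list, 3 were called higher in distal cells, against 9.59% of all genes, and none lower: Lrig1, Sostdc1 (1.11 and 1.06), a secreted antagonist of BMPs that also acts on Wnt signalling, and Atp6v1c2 (1.28 and 1.42), a subunit of the vacuolar proton pump. The medians were 1.28 and 0.68 against 0.25 and -0.02 for all genes, and 6 members were higher and 1 lower in both batches. By equal weight Atp6v1c2 alone was called, and the medians were 0.23 and 1.04. The lower member was Cst6, a cystatin, at 399 and 3504 CPM in distal, 763 and 7357 in wound bed and 4109 and 17700 in control plates. Krt79, a keratin of the follicle duct, was at 1458 and 1044 CPM in distal and 435 and 626 CPM in wound bed plates (1.74 and 0.74), although a slightly smaller share of distal cells had a read (17.3% and 18.8%). Control cells had reads of Krt79 in 42.9%.

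A list of bulge and lower follicle genes had medians of 2.39 and 0.79 over 7 members considered, of which 6 were higher in both batches and none lower. Runx1 (3.84 and 1.98), a transcription factor of follicle stem cells, and Vdr (1.81 and 1.27), the vitamin D receptor, were called higher, against 9.59% of all genes, and Vdr met the rule in all 9 settings. Postn, a secreted matrix protein, was at 2103 and 825 CPM in distal, 401 and 477 in wound bed and 270 and 434 in control plates. It missed the size rule by sums (2.39 and 0.79) and met it by equal weight (2.49 and 1.24). Reads of Postn were found in 26 of 32 and 35 of 49 distal cells, 75.3% in all (64.5 to 84.2%), against 10 of 30 and 15 of 55 wound bed cells, 29.4% in all (20 to 40.3%). Thinned, these shares were 67.5% and 25.6%, with 34.9% in control cells. Nfatc1, a transcription factor of quiescent bulge cells, was in 34.6% of distal and 8.24% of wound bed cells (0.93 and 0.46). The stem cell markers Cd34 and Lgr5 were too sparse to be considered, with reads in 2 and 3 distal cells.

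Krt1, a keratin of differentiation, was higher in the wound bed by plate sums. Of 10 suprabasal genes considered, 2 were called lower in distal cells and none higher (5.28% of all genes were called lower), and 7 were lower in both batches. Krt1 was at 202 and 751 CPM in distal, 1333 and 1773 in wound bed and 1481 and 583 in control plates. Elovl4, an elongase of very long fatty acids of the skin barrier, was at 26 and 68.4 CPM in distal and 102 and 178 CPM in wound bed plates. Neither was called by equal weight (-1.01 and -0.86, and -0.90 and -0.86). Krt10 (-0.41 and -1.98) and Krtdap (-1.34 and -0.92), a secreted protein of differentiating keratinocytes, were lower without meeting the rule. The list medians were -1.51 and -1.08. Krt5 (-0.02 and 0.03) and Krt14 (0.06 and -0.13) differed little by sums. Of 12 basal genes considered Krt15 alone was called, as higher (9.59% of all genes).

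Counted by cell, 20 of 32 and 35 of 49 distal cells had more reads of Krt5, Krt14 and Krt15 together than of Krt1 and Krt10, 67.9% in all (56.6 to 77.8%). Among wound bed cells this held for 15 of 30 and 30 of 55, 52.9% in all (41.8 to 63.9%), and among control cells for 77.4%. The share was higher in distal cells in each batch, with overlapping intervals. Fewer suprabasal cells and less suprabasal RNA per cell cannot be told apart in a plate sum. Within the cells rich in basal keratin, 928 of 6763 genes considered met the size rule as higher and 442 as lower. There Elovl4 was at 0.00 and 0.34, while 26 of the 30 ranked genes met the size rule. The 4 that did not were Fcgbp, Ubr4, Skp1a and Trim2.

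**Figure D4:**
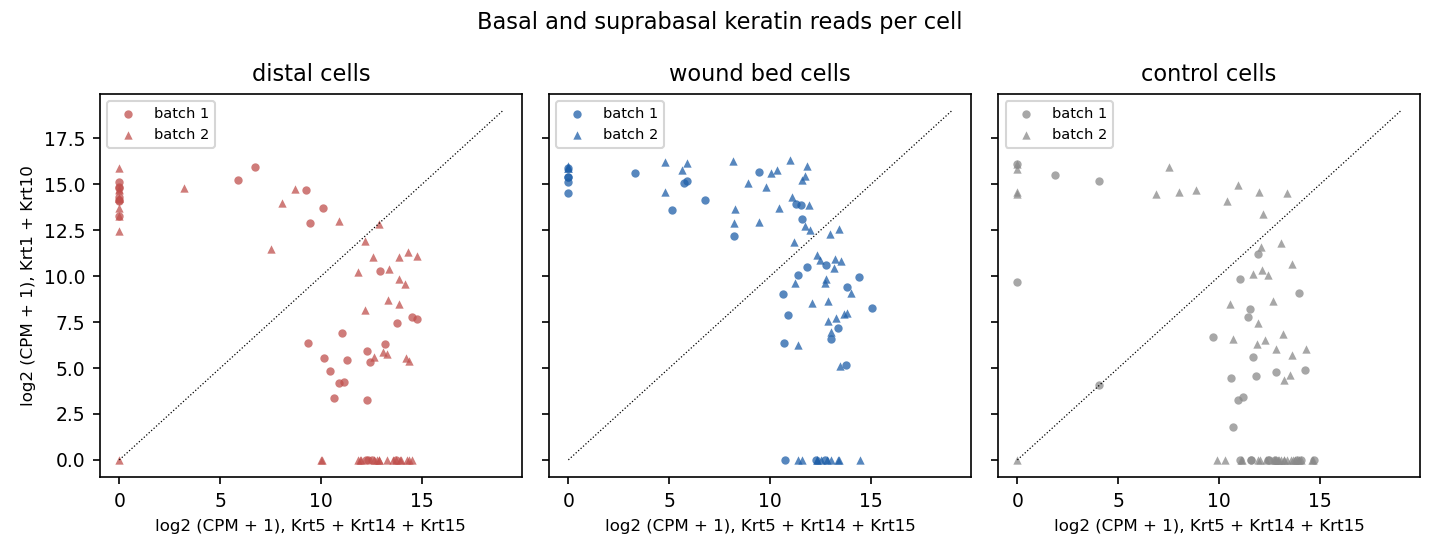
Basal keratin reads (Krt5, Krt14 and Krt15, horizontal) and suprabasal keratin reads (Krt1 and Krt10, vertical) of each cell as log2 of CPM plus 1, by region, with shapes for batches. Cells below the dotted line of equality have more basal keratin: 67.9% of distal, 52.9% of wound bed and 77.4% of control cells.

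Some genes of MHC class I presentation were higher in distal cells by plate sums. Of 10 considered, 4 were called higher, against 9.59% of all genes, and none lower, and 1 of the 4 was also called by equal weight. The list had medians of 1.28 and 1.30 by sums, and 8 were higher in both batches. H2-K1, a class I heavy chain, was at 351 and 430 CPM in distal, 107 and 32.9 in wound bed and 396 and 236 in control plates. H2-D1, the other heavy chain called, was at 229 and 305 CPM, 97.3 and 33.8 CPM, and 194 and 124 CPM. Tap1, which carries peptides into the endoplasmic reticulum, was at 30.8 and 37 CPM, 14.4 and 1.81 CPM, and 42.5 and 35.6 CPM. Psmb8, a subunit of the immunoproteasome, was seen in 17 distal cells and 1 wound bed cell. The wound bed plate of batch 2 was the lowest of its batch for all 4, and there Psmb8 had no read and was at least 36.2-fold lower. In batch 1 Psmb8 had 63 distal and 3 wound bed reads, a ratio of 5.02 (counting interval 1.64 to 25, counting error only). By equal weight Psmb8 was called too (2.51 and 4.93), while H2-K1 (0.68 and 2.75), H2-D1 (0.69 and 2.99) and Tap1 (-0.59 and 2.55) fell short in batch 1. Without the 4 deepest distal cells Tap1 was at -0.25 and H2-K1 at 0.88 in batch 1. The light chain B2m, at 1302 and 832 CPM in distal and 516 and 1131 CPM in wound bed plates, did not share the direction (1.33 and -0.44). The heavy chains are alike in sequence, and reads shared between them could have been split.

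The promoters of this list were searched on both strands for GAAANNGAA, a short form of sites that interferon regulatory factors bind. From 250 bases before to 50 after each start in RefSeq (GRCm38.p6), 9.76% of all genes had a match, as did 3 of 11 genes of the list with a promoter in the table (H2-T23, B2m and Psme1). None of the 4 called genes had one in this window. Shown here are B2m (chr2:122147437-122147736, plus strand), which has a match in capitals and was not called, and Tap1 (chr17:34187306-34187605, plus strand), which was called and has none.
B2m: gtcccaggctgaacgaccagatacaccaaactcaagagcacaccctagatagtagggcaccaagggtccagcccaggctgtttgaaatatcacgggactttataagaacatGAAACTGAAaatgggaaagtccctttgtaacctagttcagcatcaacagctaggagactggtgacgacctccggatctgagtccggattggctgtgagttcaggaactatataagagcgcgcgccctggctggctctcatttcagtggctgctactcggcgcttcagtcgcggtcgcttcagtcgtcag
Tap1: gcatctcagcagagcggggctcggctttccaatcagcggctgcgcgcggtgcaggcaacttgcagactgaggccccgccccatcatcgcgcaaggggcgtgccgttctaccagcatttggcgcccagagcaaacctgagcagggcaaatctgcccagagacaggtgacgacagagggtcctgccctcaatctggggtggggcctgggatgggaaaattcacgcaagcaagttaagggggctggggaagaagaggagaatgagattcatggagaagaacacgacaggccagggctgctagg
These letters say nothing of binding in the cells. Of an interferon response list, 8 of 13 genes had a match, but only 4 members were detected widely enough to be considered and none was called. Among these, Ifi27 (0.83 and 0.65), a mitochondrial interferon-stimulated protein, was seen in 71.6% of distal and 43.5% of wound bed cells, and Ifitm3 (0.16 and 0.32), a membrane protein that restricts viral entry, in 61.7% and 56.5%.

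Keratinocyte genes of wound repair leaned to the wound bed without reaching the size rule in both batches. All 5 members considered of that list were lower in distal cells in both batches, with medians of -1.02 and -0.89, and none was called. Krt6a, a keratin induced at wound edges, was at 24.6 and 91 CPM in distal, 332 and 152 in wound bed and 61.2 and 109 in control plates (-3.70 and -0.73). Stfa1, a stefin A, was at 274 and 284 CPM, 555 and 526 CPM, and 1.98 and 12 CPM, and in 32.1% of distal, 55.3% of wound bed and 5.95% of control cells. Distal plates thus held more Stfa1 than control plates, and less than wound bed plates. Of 5 stefin A genes considered only Cstdc5 was called, as lower (5.28% of all genes), and Stfa3 went in opposite directions (1.16 and -1.52). Sprr1a, a precursor of the cornified envelope, was at 83.4 and 30.8 CPM in distal and 91.8 and 810 CPM in wound bed plates, where 82.1% of the batch 2 reads came from 1 cell.

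The palindrome TGANTCA, bound by AP-1 factors, was found in a promoter of 8.97% of all genes (7.81% of all promoters). Among genes considered the share was 6.19%. In the wound repair list 5 of 8 genes had a match (Sprr1a, Sprr1b, Serpinb2, Mmp13 and Plaur). Of these, Sprr1b, Mmp13 and Plaur were not among the genes considered, and Sprr1a and Serpinb2 were not called. In an AP-1 and immediate early list none of 13 genes had a match. The promoter of Sprr1a (chr3:92485832-92486131, minus strand) is shown, with its 2 matches in capitals.
Sprr1a: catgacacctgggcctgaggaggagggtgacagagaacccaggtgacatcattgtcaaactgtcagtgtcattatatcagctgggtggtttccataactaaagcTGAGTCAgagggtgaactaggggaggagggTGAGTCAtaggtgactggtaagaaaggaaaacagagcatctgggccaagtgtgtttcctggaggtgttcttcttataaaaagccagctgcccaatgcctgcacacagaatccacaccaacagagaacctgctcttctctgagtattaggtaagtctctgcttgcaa
Of the AP-1 and immediate early genes themselves, 2 of 11 considered were called higher in distal cells by sums, against 9.59% of all genes. They were Jun (1.76 and 1.89) and Ier2 (1.04 and 1.01), and neither was called by equal weight. Fos (0.18 and -1.55) and Junb (0.47 and -1.76) went in opposite directions.

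Another connexin beside Gja1 was on the wound bed side. Gjb6, which encodes connexin 30, was at 6.87 and 0 CPM in distal, 39.8 and 131 in wound bed and 0 and 31.4 in control plates. It had reads in 1 of 81 distal cells and 19 of 85 wound bed cells, and was at least 155-fold lower in distal batch 2, where no cell had a read. With cells thinned, its batch 1 ratio was -0.66 in place of -2.37.

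Among signalling genes, calls went in both directions and most held by sums only. Of all genes 9.59% were called higher and 5.28% lower. In the BMP and TGF-beta list 1 of 12 considered was higher, the receptor Tgfbr1 (4.11 and 2.53, with 72% and 79.5% of distal reads from 1 cell in each batch), and 1 lower, Id1. In the Wnt list 3 of 14 were higher and 3 lower. The receptor Fzd7 was at 128 and 159 CPM in distal, 32.6 and 7.25 in wound bed and 438 and 106 in control plates, and in 42%, 10.6% and 56% of cells, but its batch 1 ratio was 0.00 by equal weight. Lrp4 rested on 1 cell with 97.6% of its distal batch 1 reads and was at -4.53 in that batch without the deepest cells, and Dkk3 (1.06 and 1.59), a secreted Dickkopf-like protein, was not called by equal weight. Wls, needed for the release of Wnt ligands, was at 219 and 124 CPM in distal and 540 and 474 CPM in wound bed plates and was called in both weightings, although nearly equal shares of cells had a read (54.3% and 54.1%). Fzd6 (-1.22 and -1.33), a receptor, and Sfrp1 (-4.22 and -1.38), a secreted antagonist, were lower by sums only. The EGF receptors Erbb2 (1.29 and 2.46) and Erbb3 (1.09 and 1.10) and the receptor Notch2 (2.11 and 2.08) were higher by sums only, and Notch2 was at -3.11 in batch 1 without the deepest cells.

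In the list of interleukin-1 and NF-kappaB genes, 2 of 6 considered were called higher (9.59% of all genes) and 1 lower (5.28% of all genes). Il33, an alarmin kept in the nucleus, was at 10 and 43.3 CPM in distal, 96.8 and 119 in wound bed and 45.9 and 22.6 in control plates, and in 9.88%, 32.9% and 9.52% of cells, but its batch 2 ratio was -0.39 by equal weight. Rela (1.57 and 1.2), a subunit of NF-kappaB, was called in both weightings, and Nfkbia (1.16 and 2.57), its inhibitor, was at -1.01 in batch 1 by equal weight.

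Of 7 genes considered of a hypoxia list, 3 were called lower in distal cells (5.28% of all genes) and 1 higher (9.59% of all genes), with medians of -0.83 and -0.84. Ndufa4l2, a hypoxia-induced mitochondrial protein, was at 24.2 and 7.07 CPM in distal, 65.8 and 31.7 in wound bed and 0 and 3.20 in control plates, in 22.2%, 45.9% and 3.57% of cells, and met the rule in all 9 settings. Hif1a, the oxygen-regulated transcription factor, was at 104 and 62.2 CPM in distal and 280 and 196 CPM in wound bed plates but fell short by equal weight (-0.74 and -0.42). Egln3 was ranked above. Ndrg1, also induced by hypoxia, went the other way (2.67 and 3.41), with 80.9% and 63.3% of its distal reads from 1 cell in each batch.

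Among other metabolic genes, Psat1, an enzyme of serine synthesis, was at 72.4 and 69.8 CPM in distal, 265 and 487 in wound bed and 15.6 and 60 in control plates, and in 35.8%, 63.5% and 23.8% of cells. It was the only member called among 8 considered of its list, as lower in distal cells (5.28% of all genes). Of 13 glycolytic genes considered, Hk1 (2.28 and 1.22), Pfkl (3.06 and 2.36) and Ldhb (1.06 and 2.81) were called higher, against 9.59% of all genes. None was called lower, and Pfkl and Ldhb were called in both weightings. Pfkl had only 2 and 3 reads in the wound bed plates, with ratios of 14.9 (4.05 to 125) and 9.68 (3.02 to 49.5), intervals of counting error only, and 85.6% and 58.1% of its distal reads came from 1 cell in each batch. Metallothioneins were on the wound bed side, Mt1 at -0.87 and -0.77 and Mt2 at -0.61 and -1.95, and both were called by equal weight only. Ccnd2, a cyclin of the G1 phase, was at 390 and 589 CPM in distal, 184 and 173 in wound bed and 721 and 411 in control plates. It was the only call among 12 cell cycle genes, against 9.59% of all genes called higher, and the list medians disagreed in sign (1.04 and -1.17).

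Long non-coding RNAs of the nucleus were called higher in distal cells by sums for 4 of 4 considered, against 9.59% of all genes, with medians of 3.16 and 2.61. By equal weight 2 of the 4, Malat1 and Neat1, were called, and the medians were 0.92 and 2.60. Malat1 was at 14400 and 6080 CPM in distal, 2225 and 671 in wound bed and 612 and 395 in control plates. Neat1 was at 774 and 424 CPM, 61.4 and 102 CPM, and 33.5 and 122 CPM, and met the rule in all 9 settings. Distal plates were the highest of their batch for both. In distal batch 1 the deepest cells weighed heavily, and without them Malat1 was at 0.65 there, with 3.18 in batch 2. Reads of Malat1 were in 76.5% of distal and 48.2% of wound bed cells, 63.6% and 42.3% after thinning. Xist, which silences 1 X chromosome in females, was in 19 of 32 and 24 of 49 distal and 12 of 30 and 14 of 55 wound bed cells, and no plate had a read of the Y-linked genes Ddx3y and Uty. Its batch 1 ratio, 3.65 by sums, was 0.70 without the deepest cells. Kcnq1ot1, an imprinted antisense transcript, was at 1.61 and 4.14, and at -4.48 in batch 1 without the deepest cells. Whether counting used strand is not stated, so reads of overlapping genes could not be separated. Ribosomal protein genes showed the reverse lean by sums, with 44 of 85 lower and 1 higher in both batches and none called. Their medians were -0.72 and -0.27 by sums. By equal weight they were -0.37 and 0.02, against -0.03 and 0.31 for all genes, so the batch 2 median was no longer below 0. Mitochondrial share, read depth and the nuclear RNAs moved together in distal batch 1, and their part in the result was not tested.

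Vcl, the adhesion protein vinculin, had 223 distal reads and 1 wound bed read in batch 1, a ratio of 53.3 (9.47 to 2115, counting error only) with 78.5% of the distal reads from 1 cell, and was at least 21.2-fold higher in batch 2, where no wound bed cell had a read. Ctnna1, an adherens junction protein, Slc11a2, an iron transporter, Sdha of the respiratory chain, and Ezh1 and Bap1 of the polycomb system were higher by sums, and of these Slc11a2 (4.05 and 1.05) was called by equal weight as well. Ezh1 turned to -0.98 in batch 1 by equal weight. The cholesterol synthesis list had medians of 1.37 and -0.87 and no called member among 10 considered, and the sebaceous gland, heat shock, S100, clade B serpin and basement membrane lists had none either.

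**Figure D5:**
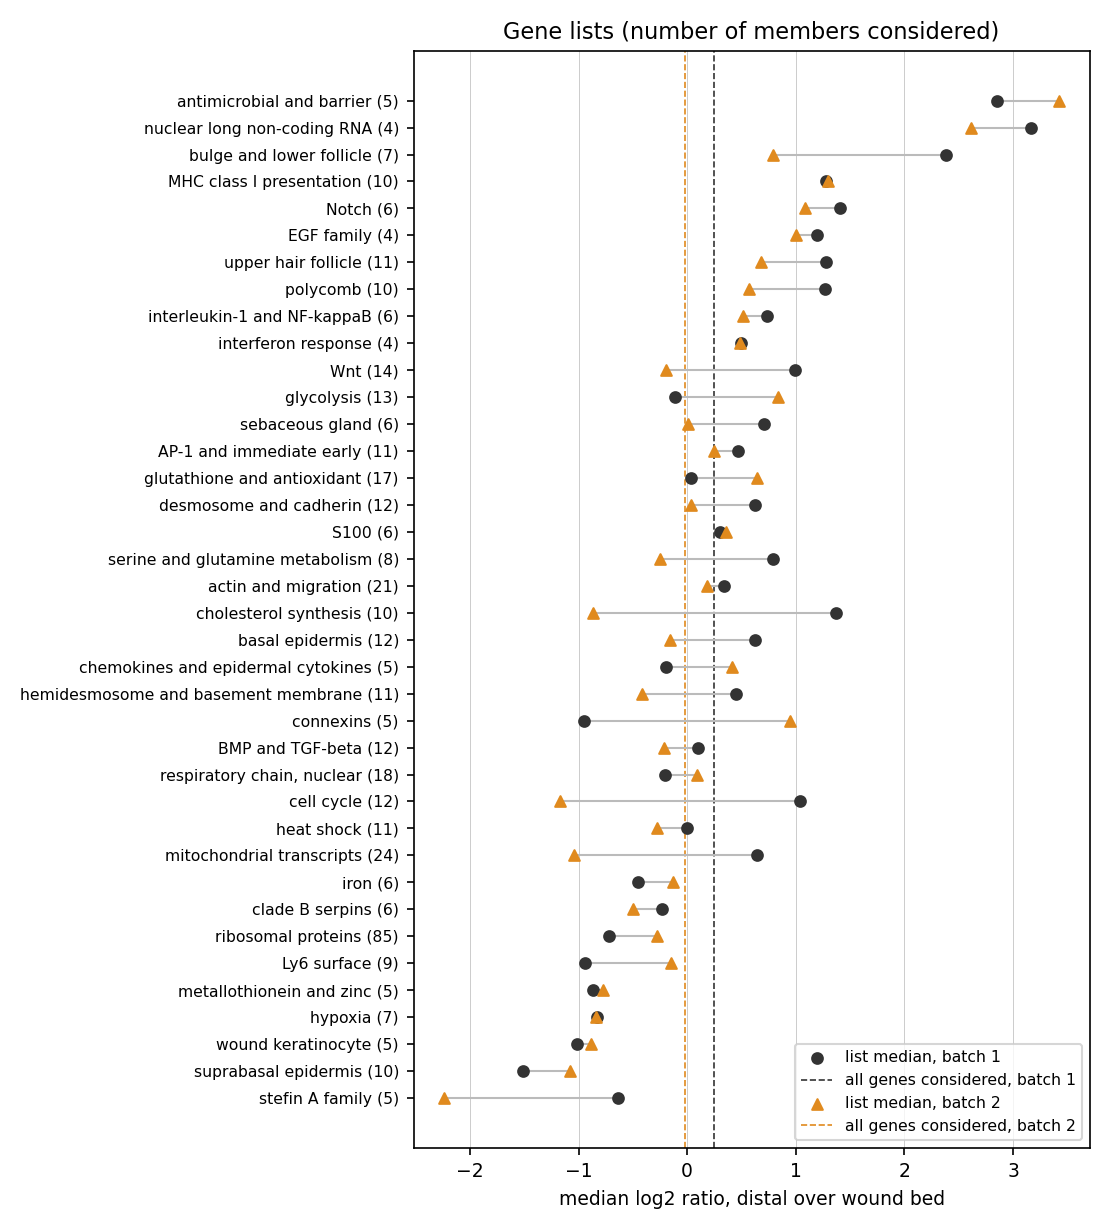
Median log2 ratio of distal over wound bed cells for lists with at least 4 members considered, with the number of members in parentheses, in batch 1 (circles) and batch 2 (triangles). Dashed lines are the medians of all genes considered. The suprabasal list stands at -1.51 and -1.08 and the MHC class I list at 1.28 and 1.30, while the cell cycle and cholesterol lists change sign between batches.

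Markers of other cell types of skin mostly had no read in a given plate. Of 8 such lists, for T cells, Langerhans cells, macrophages, fibroblasts, endothelium, melanocytes, Merkel cells and muscle, 1 T cell marker and 1 fibroblast marker were detected widely enough to be considered. The fibroblast marker Sparc, a secreted matrix protein, was at 2.91 and 43 CPM in distal and 60.8 and 314 CPM in wound bed plates, while Col1a2, Dcn and Pdgfra had no read in any of the 4 plates. Col1a1 and Lum had 3 reads each, all in distal batch 1. Sparc was at 1.42 and -1.29 with cells thinned. Cd207, H2-Ab1 and Itgax of Langerhans cells had no read either. Of the same list, H2-Aa had 137 reads in distal batch 1, the count of 1 cell. Cd74 had 13 reads in distal batch 2 and 8 in wound bed batch 1, and H2-Eb1 had 5 in wound bed batch 1. Mfge8 had reads in all 4 plates, and Ptprc in distal batch 2. The melanocyte list summed to 288 CPM in distal batch 1, where 1 cell held 99.1% of the reads of Mitf, a gene singled out after its values were seen.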

How the data were processed

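The authors deposited a table of whole-number read counts for 27003 gene symbols and 250 cells, and each column matched a cell title. Cells were sequenced by Smart-Seq2, full-length RNA libraries without molecular identifiers, per the labels' protocols. Per the submitters' processing notes, the tools were Salmon 0.13.1, R 4.0.3 and Seurat and the build was mm10 (GRCm38), with no role or order, and how the deposited counts became whole is not given in the sources used here. Of the symbols, 5495 had no read and 26417 matched a gene name of GENCODE M21, which gave coordinates. No doublet caller was run and no cell was left out.

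Counts were summed per plate and scaled by trimmed means of M values with edgeR 4.0.16 (R 4.3.3), and log2 ratios of CPM plus 1 were taken within batch in Python 3.11.15. The code of the ratio step was checked on simulated counts with large set changes. That check scaled by total counts, so it did not cover the scaling by trimmed means. With 1 sample a region, no test was run. A gene was considered if 10% or more of the cells of a region had a read in each batch and called with both log2 ratios at least 1 in size and of 1 sign. The members, the 44 lists and the rules were chosen with earlier results of these data known. From the lists, 26 of 518 genes had no row in the table. Genes were named by rank, up to 15 in each direction, among those called by sums and by the mean of per-cell CPM, detected in 25% or more of cells of the higher region and a higher share there in each batch. Predicted genes, pseudogenes, ribosomal protein and mitochondrial genes were excluded, and the smallest of the 4 ratios gave the rank. Lrig1, Ly6a, called list members and up to 4 abundant members of a described list were eligible too. Cells were thinned to 10000 reads for equal depth, which left out 4 distal, 7 wound bed and 1 control cell. A plate without a read was given a floor of 3 counts. Some list members are not reported here.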

Additional observations from a re-analysis of the deposited data

How the results depend on the processing

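The main counts were 603 genes higher and 332 lower in distal cells. The number of genes considered, 6285 there, also changed with the filter and the cells used, so a move in count is not a move in share. Higher counts moved by more than 1.5 times to 383 of 6285 with a pseudocount of 5 CPM. They moved to 1288 of 12265 with no detection filter and 137 of 2651 with detection in 25% of cells. With cells thinned to 10000 reads they were 232 of 3862. They were 1167 of 8278 in cells with at least 2000 genes and 928 of 6763 in cells rich in basal keratin. Lower counts moved to 699 with no filter, 110 with detection in 25% of cells and 564 in cells with at least 2000 genes. A single batch gave 1664 to 2049 higher and 1295 to 1655 lower genes. The share of higher genes among those called was 64.5% in the main setting, 49.7% with total counts, 47% after thinning, 54.7% without the 4 deepest cells and 55.5% with the 25% filter. The cause was not tested. Of the 935 genes called, 455 were also called with cells weighted equally, 218 after thinning, 603 without the deepest cells and 868 without cells rich in repeat-like reads.

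Of the 45 called list members on the distal side 8 met the rule in all 9 recomputed settings, and of the 18 on the wound bed side 7. These counts include ranked genes, for which the equal-weight setting was met by choice. Among called list members that were not ranked, 3 of 39 on the distal side and 1 of 12 on the wound bed side met all 9. As means over batches, the ratio turned for Ezh1 (-0.41 thinned, -0.19 without the deepest cells), Sparc (0.068 thinned), Kcnq1ot1 (-0.16), Lrp4 (-1.40) and Notch2 (-0.51) without the deepest cells, and Elovl4 (0.17) and Lrp4 (-0.26) in cells rich in basal keratin. No paired analysis was possible because the results come from no test, and every ratio was already taken within batch. Detection in 25% of cells left 2651 genes.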
